A study of Mus musculus with 6 samples.

Results

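Superoxide dismutases, catalase and peroxiredoxins are the enzymes that take superoxide and hydrogen peroxide out of a cell. The 9 mouse genes described here, Sod1, Sod2, Cat and Prdx1 to Prdx6, were taken by symbol from a table of 25239 genes, and all 9 were present. Of these, 8 had a count in at least 1 library and 5 passed the filter on low counts (Sod1, Sod2, Prdx1, Prdx2 and Prdx5). The libraries were 6 Smart-seq3 libraries (single-cell cDNA primed with oligo(dT) and amplified by PCR) of germinal vesicle (GV) oocytes, the meiotic stage at which the nucleus is still intact. They came from female mice of CD-1, an outbred strain, aged 4 to 6 weeks. Complexes of an oocyte with its cumulus cells were microinjected with water (3 libraries) or with a mixture of phthalate metabolites, the breakdown products of common plasticizers (3 libraries). Both groups were then cultured in a maturation medium with 10% fetal bovine serum, 200 mIU/mL follicle-stimulating hormone and 50 µg/mL pyruvate. The dose and the composition of the mixture are not given in the sources used here.

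The titles call every library a GV oocyte, and oocyte is used here for a library. No animal or culture is named for any of them, so each group counts as 1 sample. No difference between the groups was tested, and ratios are given with exact intervals that cover counting error only. Library totals ran from 252267 to 300917 gene counts, with 292 to 753 counts of spiked-in ERCC RNA. The 14 oocyte markers, among them Gdf9 and Zp3, were all detected and summed to 31100 to 35000 CPM (counts per 1000000 counts of the library) under water and 30200 to 34700 under phthalate. Of 20 cumulus and granulosa markers 11 were detected, summing to 75 counts under water and 56 under phthalate, and Nr5a2 alone gave 103 of these. Amh, Foxl2 and Star were among the 9 listed at 0. All 7 erythrocyte markers, the hemoglobin genes included, were listed at 0 in every library. The part of RNA from other cells in the ratios below was not tested.

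Superoxide, a by-product of respiration and of oxidases, is converted by superoxide dismutases to hydrogen peroxide and oxygen. Catalase, an enzyme of peroxisomes, splits hydrogen peroxide to water and oxygen. Peroxiredoxins reduce it through a reactive cysteine, and most of them are recharged by thioredoxin. The oocyte depends on mitochondrial respiration and is held for a long time in meiotic arrest, and oxidative damage is widely studied in it.

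The peroxiredoxins share one active site, and their coding sequences are shown around the codon of the cysteine that reacts with peroxide, because they show how far reads of the 6 genes can be told apart. The sequences come from GENCODE M21 transcripts (GRCm38), with that codon in capitals and 15 bases on each side.
Prdx1: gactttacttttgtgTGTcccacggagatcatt
Prdx2: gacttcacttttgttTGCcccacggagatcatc
Prdx3: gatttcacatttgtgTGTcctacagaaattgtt
Prdx4: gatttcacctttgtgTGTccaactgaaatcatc
Prdx5: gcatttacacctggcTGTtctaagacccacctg
Prdx6: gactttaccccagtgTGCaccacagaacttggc
In this window of 33 bases Prdx2 differed from Prdx1 at 4 positions, while Prdx5 differed from each other member at 17 to 19. Over whole coding sequences the identity between peroxiredoxins ran from 51.3% (Prdx5 and Prdx6) to 69.9% (Prdx1 and Prdx2). The longest run shared by any pair was 23 bases (Prdx2 and Prdx4), against reads of 150 bases. No read lying wholly in coding sequence could thus match 2 members along its length, but processed pseudogenes come closer. At a minimum identity of 90% over at least 150 bases, Prdx1 had 3 processed pseudogenes (the nearest, Gm21399, at 98.3%), Prdx2 had 2 (Tdpx-ps1 at 96.3%) and Sod1 had 1 (Gm8566 at 97.8%). None of these pseudogenes is a row of the table, and how reads that match both were counted is not given in the sources used here. Prdx6 has a retained copy, Prdx6b (92.9%), which was listed at 0 in all 6 libraries.

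The members spanned a wide range of levels. Prdx2 was the most counted with 3567 counts over the 6 libraries, followed by Sod1 with 1595 and Prdx1 with 835, and these 3 held 94.98% of all 6314 member counts. By mean count Prdx2 ranked 41, Sod1 128 and Prdx1 287 among all genes of the table. Prdx5 followed with 193 counts, then Sod2 with 52, Prdx3 with 41, Prdx6 with 21 and Prdx4 with 10. Catalase had none. Sod2 and Prdx3, whose products act in the mitochondrial matrix, together took 0.00562% of the counts under water and 0.00547% under phthalate, against 0.352% and 0.402% for all 9 genes. Prdx5, whose product is found in mitochondria and elsewhere, is not part of that share and alone had 102 and 91 counts.

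**Figure D1:**
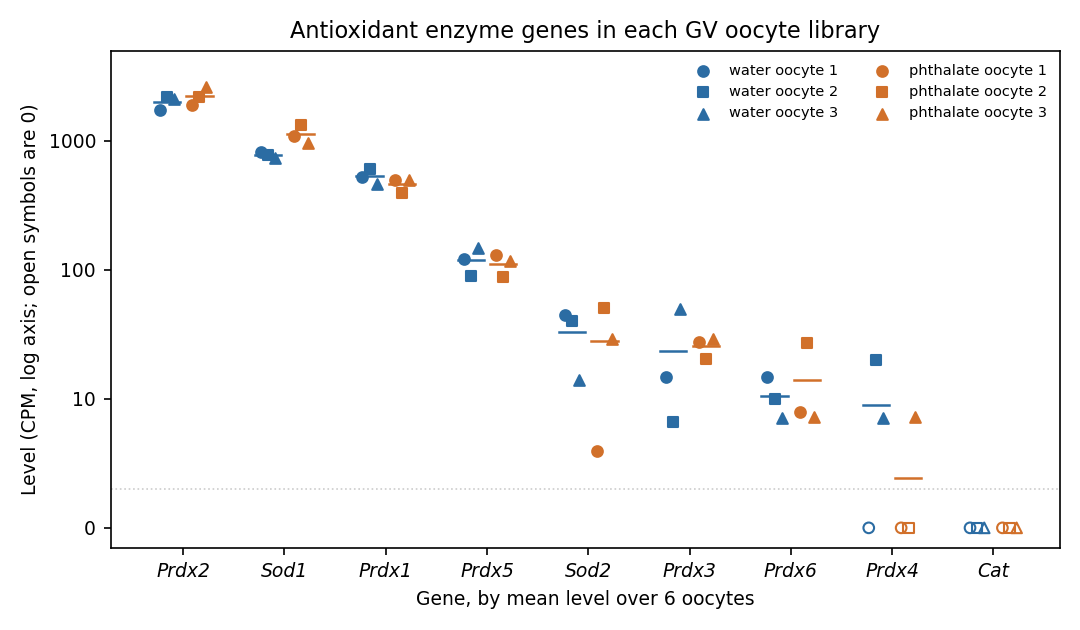
Level of each of the 9 genes in each library, in CPM on a log axis, with open symbols at the bottom for a value of 0. Blue symbols are water oocytes, orange symbols phthalate oocytes, the shape gives the oocyte number and the short lines are group means. The 3 phthalate values of Sod1 lie above the 3 water values, those of the other detected genes overlap, and Cat is at 0 in all 6 libraries.

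Levels can be compared between genes only per length, and that order depended on the gene model. On the longest transcript annotated as protein coding, Sod1 (641 bases) and Prdx2 (1612 bases) stood first with means of 1486 and 1316 CPM per kilobase over the 6 oocytes. The ranges over oocytes, 1149 to 2062 for Sod1 and 1073 to 1622 for Prdx2, overlapped, so these neighbours did not differ beyond their spread. Their order turned with the group, since Prdx2 had the higher mean under water (1246 against 1216) and Sod1 under phthalate (1756 against 1386). Prdx1 was next with a mean of 217 CPM per kilobase (range 173 to 262), then Prdx5 with 91.9 (69.8 to 117), and neither range met that of its neighbours above. Prdx3 (16.7), Prdx4 (5.77), Sod2 (5.19) and Prdx6 (5.18) had ranges that overlapped one another. On the longest transcript of any kind, the length first chosen, Prdx2 led with 1316 CPM per kilobase and Sod1 had 240, because the longest Sod1 model is a transcript of 3970 bases with a retained intron. On coding length Prdx2 (3572 CPM per kilobase) again stood above Sod1 (2061).

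Sod1 encodes the copper-zinc superoxide dismutase of the cytosol and of the space between the mitochondrial membranes. The gene (ENSMUSG00000022982.10) lies at chr16:90220754-90226329 on the plus strand of GRCm38, with 5 exons in its coding transcript. Its counts were 223, 233 and 209 under water (oocytes 1, 2 and 3 in that order, as for all values below) and 275, 390 and 265 under phthalate. In CPM these were 828, 774 and 737 against 1090, 1322 and 964. Every phthalate oocyte was above every water oocyte, with phthalate oocyte 2 the highest and phthalate oocyte 3 at 1.17 times the highest water oocyte. The group means were 779 ± 45.7 CPM (SD, n = 3 oocytes of 1 sample) and 1125 ± 182 CPM (SD, n = 3 oocytes of 1 sample). The log2 ratio of phthalate over water, from summed counts and TMM-scaled totals, was 0.56 (95% interval 0.41 to 0.70), a ratio of 1.47. With counts taken as read pairs the interval widened to 0.35 to 0.76. The ratio stood just inside the limit of 1.5-fold used here to call a gene higher or lower. It passed that limit when water oocyte 1 (0.59), phthalate oocyte 1 (0.60) or phthalate oocyte 3 (0.62) was left out, and was 0.44 without phthalate oocyte 2.

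Across the 4644 genes that passed the filter, 6.96% were higher and 8.14% lower in the phthalate group by 1.5-fold or more, and of the 5 members that passed, 0 were higher and 0 lower by that limit. CPM values that did not overlap between the groups were found for 4.52% of genes in the higher and 5.49% in the lower direction. Among the members they were found for 1 gene, Sod1, in the higher direction and for 0 genes in the lower, a share from so few genes that it cannot be set apart from the background. Counting error is smaller for a gene as abundant as Sod1. Among the 398 genes with a mean count from 100 to 500, 7 genes (1.76%), Sod1 included, had a log2 ratio at least as high as that of Sod1, and the central 90% lay between -0.29 and 0.39. The median log2 ratio was -0.09 for the 5 members and 0.01 for all 4644 genes.

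**Figure D2:**
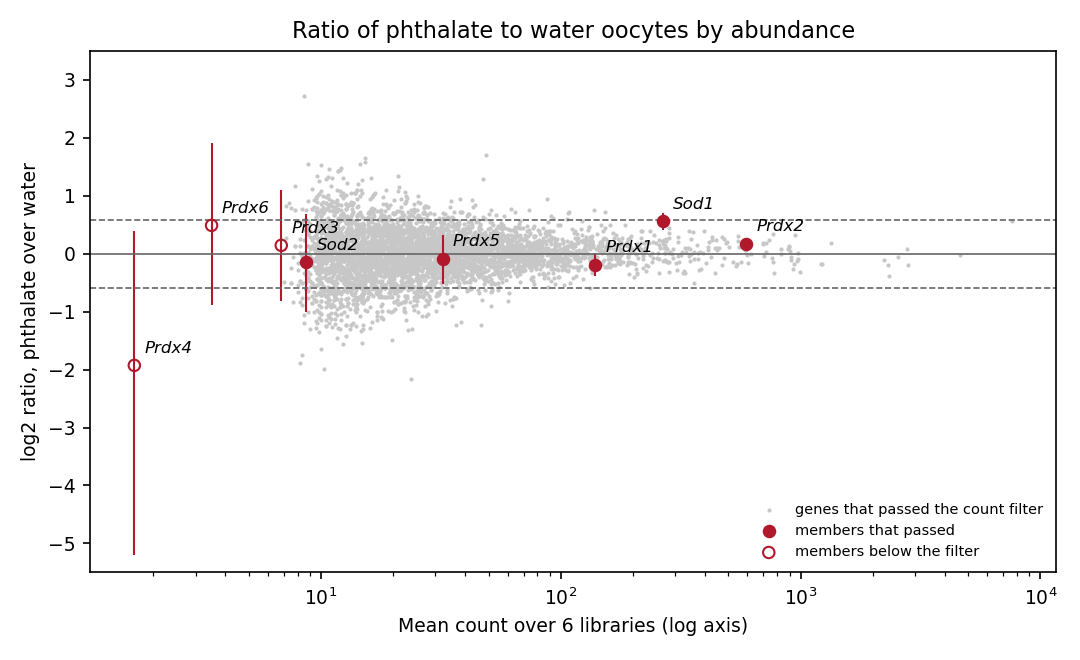
Log2 ratio of phthalate over water against the mean count over the 6 libraries (log axis). Grey points are the 4644 genes that passed the filter, filled red points the 5 members that passed, open red points the 3 detected members below it, vertical bars are 95% intervals of counting error, and dashed lines mark 1.5-fold. Sod1 (0.56) sits at the upper edge of the genes of its abundance, while the intervals of the low-count members span 0.

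Sod2 encodes the manganese superoxide dismutase of the mitochondrial matrix (chr17:13006846-13040063, plus strand). Its counts were 12, 12 and 4 under water and 1, 15 and 8 under phthalate. Phthalate oocyte 1 held the lowest value and phthalate oocyte 2 the highest, so the water values lay within the phthalate range. The sums were 28 (95% exact Poisson interval 18.6 to 40.5) and 24 (15.4 to 35.7), and the log2 ratio was -0.15 (-1.0 to 0.69). Without phthalate oocyte 2 it was -0.89, past 1.5-fold, and without phthalate oocyte 1 it was 0.34. A difference in Sod2 was not detectable at this depth. Sod3, the secreted superoxide dismutase and not one of the 9 genes, was listed at 0 in every library.

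Because Sod1 outnumbers Sod2, the sum of both dismutases followed Sod1. Their share of all counts was 0.0872%, 0.0814% and 0.0751% under water and 0.109%, 0.137% and 0.0993% under phthalate. The group shares were 0.0811% (95% exact binomial interval 0.0752 to 0.0874) and 0.116% (0.109 to 0.124). The 6 peroxiredoxins together took 0.241%, 0.290% and 0.280% against 0.257%, 0.272% and 0.327%, and the values of the groups overlapped. Without Sod1, the other 8 genes took 0.274% (0.263 to 0.286) under water and 0.289% (0.277 to 0.301) under phthalate.

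Cat encodes catalase (chr2:103453849-103485160, minus strand, 13 exons in its coding transcript). It was listed at 0 in all 6 libraries, as were 49.3% of the genes in the table. With 1676410 counts in all, 0 counts allow a level of up to 1.79 CPM (3 counts, counting error only), below the 5.71 CPM mean of Prdx4, the least counted of the detected members. In a single library the limit was 9.97 to 11.9 CPM. These limits take each count as independent and would be higher if counts come in pairs. No comparison between groups was possible for Cat. Genes of the machinery that imports catalase into peroxisomes and builds the organelle were detected, most of them below the filter. Of 17 genes of peroxisome import and assembly, 16 had counts, 6 passed the filter and 1, Pex10, was at 0. Pex5, the import receptor, did not pass. It had 8, 2 and 2 counts under water and 1, 2 and 0 under phthalate, and its groups overlapped.

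The regions upstream of Sod1, Prdx1 and Cat are shown because Sod1 had the largest log2 ratio of the 5 members that passed, Prdx1 the lowest, and Cat no count. They are the 250 bases before the RefSeq start on GRCm38.p6, on the strand of the gene (chr16:90220512-90220761 plus, chr4:116685349-116685598 plus, chr2:103485154-103485403 minus). Capitals mark matches on either strand to TATAAA, the TATA box, and to TGACNNNGC, the core of the antioxidant response element, which is the element bound by the factor NRF2.
Sod1: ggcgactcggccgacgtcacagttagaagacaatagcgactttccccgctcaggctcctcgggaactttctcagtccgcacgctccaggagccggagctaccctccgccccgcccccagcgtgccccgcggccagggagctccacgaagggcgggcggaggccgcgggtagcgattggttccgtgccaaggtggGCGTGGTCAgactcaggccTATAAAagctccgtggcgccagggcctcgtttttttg
Prdx1: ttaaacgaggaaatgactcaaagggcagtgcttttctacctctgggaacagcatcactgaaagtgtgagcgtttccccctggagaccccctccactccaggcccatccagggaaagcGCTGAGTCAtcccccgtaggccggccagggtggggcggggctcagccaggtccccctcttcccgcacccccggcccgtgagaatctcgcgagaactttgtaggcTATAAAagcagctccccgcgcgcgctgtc
Cat: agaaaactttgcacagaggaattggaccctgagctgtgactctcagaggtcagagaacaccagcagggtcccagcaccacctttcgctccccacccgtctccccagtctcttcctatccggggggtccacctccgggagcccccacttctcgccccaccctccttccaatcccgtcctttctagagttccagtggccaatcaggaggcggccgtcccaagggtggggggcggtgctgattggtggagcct
In Sod1 and Prdx1 the first match is to the response element core on the minus strand and the other to TATAAA on the plus strand, and neither sequence overlaps the other. Of 8 members in the RefSeq promoter table, Sod1 and Prdx1 held TGACNNNGC, as did 10.2% of 32851 promoters of that length. TATAAA was held by Sod1, Prdx1 and Prdx3, and by 12.4% of promoters. A match describes letters in this window and not a bound site.

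Prdx1 and Prdx2 encode the cytosolic peroxiredoxins. Prdx2 (chr8:84969587-84974834, plus strand) had 466, 654 and 603 counts under water and 481, 644 and 719 under phthalate. Its CPM values were 1729, 2173 and 2125 against 1907, 2183 and 2615. The groups overlapped, with phthalate oocyte 3 above all others and water oocyte 1 the lowest. The log2 ratio was 0.17 (0.07 to 0.27, and 0.04 to 0.31 on read pairs). It was 0.29 without phthalate oocyte 1 and 0.0007 without phthalate oocyte 3, so its size rested on single libraries.

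Prdx1 (chr4:116685544-116700822, plus strand) went the other way. Its counts were 142, 181 and 132 under water and 126, 117 and 137 under phthalate, or 527, 602 and 465 CPM against 500, 397 and 498. The highest values were those of water oocytes 2 and 1 and the lowest that of phthalate oocyte 2, while water oocyte 3 lay below 2 of the phthalate oocytes, so the groups overlapped. The log2 ratio was -0.19 (-0.39 to 0.01). Among the 398 genes of mean count 100 to 500, 55 (13.8%) had a ratio as low or lower. Without phthalate oocyte 2 it was -0.05.

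Counts of different members within one library do not depend on the library total or on its scaling. The ratio of Sod1 to Prdx1 counts was 1.57, 1.29 and 1.58 under water and 2.18, 3.33 and 1.93 under phthalate. All 3 phthalate values were above all 3 water values, and the ratio of the sums was 1.46 for water and 2.45 for phthalate. The ratio of Sod1 to Prdx2 was 0.479, 0.356 and 0.347 against 0.572, 0.606 and 0.369. Here phthalate oocyte 3 fell among the water oocytes, since it had the highest Prdx2 level and the lowest Sod1 level of its group. For Prdx2 to Prdx1 the values were 3.28, 3.61 and 4.57 against 3.82, 5.50 and 5.25, and the groups overlapped. The ratios of Sod1 to Prdx5 (6.76, 8.63 and 4.98 against 8.33, 15 and 8.28) and of Prdx2 to Prdx5 (14.1, 24.2 and 14.4 against 14.6, 24.8 and 22.5) also overlapped, so 1 of the 5 pairs computed had groups apart. That pair sets the member with the highest log2 ratio among the 5 that passed against the one with the lowest, and the pairs were chosen after the values were seen.

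**Figure D3:**
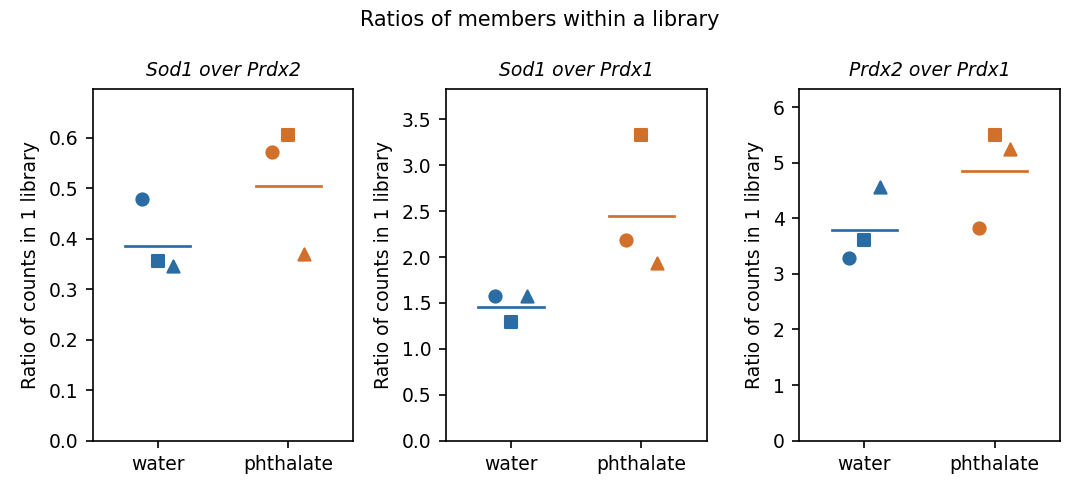
Ratio of the counts of 2 genes within each library, for Sod1 over Prdx2, Sod1 over Prdx1 and Prdx2 over Prdx1, in water (blue) and phthalate (orange) oocytes. Circles, squares and triangles are oocytes 1, 2 and 3 and lines are ratios of the summed counts. Of the 3 pairs drawn, Sod1 over Prdx1 in the middle panel has groups without overlap (1.29 to 1.58 against 1.93 to 3.33), 1 of 5 pairs computed.

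Prdx3, Prdx4, Prdx5 and Prdx6 act in other compartments or by another route. Prdx5 (chr19:6906697-6910106, minus strand), found in mitochondria, peroxisomes and cytosol, had 33, 27 and 42 counts under water and 33, 26 and 32 under phthalate. The highest value was that of water oocyte 3, and both second oocytes of their groups were lowest. The log2 ratio was -0.09 (-0.52 to 0.33). Prdx3 (chr19:60864051-60874556, minus strand), the mitochondrial peroxiredoxin, had 4, 2 and 14 counts against 7, 6 and 8. The water values spanned the phthalate values on both sides, and the log2 ratio was 0.14 (-0.81 to 1.10). It turned to -0.32 without water oocyte 2 and was 1.302 without water oocyte 3.

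Prdx4 (chrX:155323918-155340754, minus strand), the peroxiredoxin of the endoplasmic reticulum, had 0, 6 and 2 counts under water and 0, 0 and 2 under phthalate. Both groups held a library at 0, and the sums of 8 and 2 gave a log2 ratio of -1.93 with an interval from -5.20 to 0.40. It was -0.54 without water oocyte 2, which held 6 of the 8 water counts. Prdx6 (chr1:161240112-161251219, minus strand), which uses glutathione in place of thioredoxin and also has phospholipase activity, had 4, 3 and 2 counts against 2, 8 and 2. Of its 12 phthalate counts 8 were in phthalate oocyte 2, and the log2 ratio was 0.49 (-0.88 to 1.91), or -0.43 without that library. Differences in these 3 low-count peroxiredoxins, Prdx3, Prdx4 and Prdx6, were not detectable at this depth.

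The spread among oocytes was set beside counting error, and whether spread differs between members was not tested. Spread over both groups together includes any difference between them. Over all 6 oocytes the coefficient of variation of CPM was 23.5% for Sod1, where counting error on read pairs alone gives 8.67%. Within the groups it was 5.87% among water oocytes and 16.1% among phthalate oocytes. Prdx2 varied by 14.1% over the 6 oocytes against a counting error of 5.80%. Prdx1 varied by 13.6% against 12.0% and Prdx5 by 20.2% against 24.9%. These counting errors take each pair of counts as 1 independent molecule, which was not tested. Phthalate oocyte 2 had the highest Sod1, Sod2 and Prdx6 and the lowest Prdx1 and Prdx5 of the 6 oocytes.

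Genes of the opposite strand overlap 3 of the members, and whether strand was used in counting is not given in the sources used here. Scaf4 overlaps Sod1 and had 29, 23 and 27 counts under water and 48, 35 and 15 under phthalate, few beside those of Sod1. Rnaseh2a and Junb overlap Prdx2, with 28 and 57 counts per group for Rnaseh2a and 0 for Junb. Trmt112 overlaps Prdx5 and had 32 and 48 counts per group beside 102 and 91 for Prdx5, so the Prdx5 values are uncertain in this respect.

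The other genes of peroxide metabolism were followed through 6 lists. Of their genes, 40 passed the filter, 3 of these were higher and 4 lower by 1.5-fold, beside the background of 6.96% and 8.14%, and their median log2 ratio was 0.04. The intervals given for genes of the lists take every count as independent. They were not computed on read pairs, on which those of Sod1 and Prdx2 were wider. Among 22 partners that load copper, recycle or repair the enzymes, 9 passed and 1 was higher, Sesn3 (16 and 27 counts). Sesn3 had 5, 0 and 11 counts against 10, 6 and 11, overlapping groups and a log2 ratio of 0.83 (-0.12 to 1.82). Ccs, the chaperone that loads copper into Sod1, had 14 counts in each group. Srxn1, which rescues over-oxidized peroxiredoxins, was listed at 0. The most counted partners were Selenow, a small selenoprotein, with a log2 ratio of 0.25 (0.08 to 0.42), and Txnip, the inhibitor of thioredoxin, with 0.14 (-0.03 to 0.32). The thioredoxins that recharge peroxiredoxins had log2 ratios of -0.24 (Txn1, cytosolic, 140 and 113 counts) and -0.25 (Txn2, mitochondrial, 125 and 100 counts), and both intervals included 0.

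Of 15 other enzymes that remove peroxide or superoxide or make glutathione, 8 had counts and 2 passed. Gpx4, which reduces lipid peroxides, had 58, 45 and 36 counts under water and 50, 47 and 77 under phthalate, a log2 ratio of 0.40 (0.07 to 0.73) with overlapping groups. Gclm, a subunit of the enzyme that starts glutathione synthesis, had a log2 ratio of 0.12 (-0.62 to 0.85). Gpx1, the cytosolic glutathione peroxidase, had 4, 1 and 6 counts against 6, 10 and 8 and did not pass. Its log2 ratio was 1.198 (0.11 to 2.375), and its groups did not overlap in CPM (14.8, 3.32 and 21.1 against 23.8, 33.9 and 29.1). Of the other listed genes below the filter, Msrb1 (16 and 22 counts, higher) and Ppargc1b (28 and 14 counts, lower) also had groups apart. These 2 were named after their values were seen. For Gpx1 and for Msrb1 the highest water and the lowest phthalate count were both 6. Their groups were thus apart only through the library totals. For Ppargc1b the lowest water count was 9 and the highest phthalate count 8. The background of 4.52% higher and 5.49% lower covers genes that passed the filter. No share was computed for genes below it. Gsr, which recycles glutathione, was listed at 0.

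Of 30 genes in the table that make superoxide or peroxide, 17 had counts and 5 passed, of which 0 were higher and 3 lower by 1.5-fold, where 6.96% and 8.14% of all genes tested were. These 3, named after their values were seen, were Acox3, a peroxisomal acyl-CoA oxidase, Ero1lb, an oxidase of the endoplasmic reticulum, and Paox, a polyamine oxidase. Their log2 ratios were -0.96 (-1.69 to -0.25), -0.88 (-1.59 to -0.19) and -0.78 (-1.64 to 0.05), each from fewer than 20 counts per library on average. Of these 3, only Acox3 had groups without overlap, with 19, 15 and 19 counts against 4, 11 and 11, as did 5.49% of all genes tested in the lower direction. Counting error is larger at so few counts, and the share past 1.5-fold among genes of like abundance was not computed. Among the 398 genes with a mean count from 100 to 500, 6 were past that limit in either direction. The most counted genes of this list were Rac1, a small GTPase that activates NADPH oxidases (-0.35, with 162 and 121 counts), and Smox, spermine oxidase (0.24, with 74 and 83 counts). Nox4, Duox1 and Maoa were listed at 0. Among the peroxisome genes 6 passed and 1 was higher, Pex14, the docking protein of the import pore, with 24 and 39 counts. Its counts were 8, 12 and 4 against 20, 3 and 16, and the groups overlapped, phthalate oocyte 2 being the lowest of the 6. Pex11a, which acts in peroxisome division, had a log2 ratio of -0.36 (-0.81 to 0.09).

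The regulators of antioxidant genes gave 10 genes that passed, 1 higher and 1 lower by 1.5-fold, near the 6.96% and 8.14% of all genes tested. The first was Mafg, with 30 and 43 counts, a log2 ratio of 0.59 (-0.11 to 1.315) and overlapping groups, phthalate oocyte 3 being the lowest of the 6. The other was Brca1, with 71 and 40 counts, a log2 ratio of -0.76 (-1.35 to -0.18) and overlapping groups. Nfe2l2, which encodes NRF2, had 5 and 7 counts and did not pass. Keap1, the inhibitor of NRF2, had a log2 ratio of -0.47 (-1.17 to 0.23). Nfe2l1, a relative of NRF2, had counts of 29, 31 and 26 against 20, 26 and 11 and a log2 ratio of -0.52 (-1.03 to -0.02). Its groups did not overlap in CPM, as for 5.49% of all genes tested in that direction. The lowest water and the highest phthalate count were both 26, so its groups were apart only through the library totals. Over the 6 lists, 2 of the 40 genes that passed, Acox3 and Nfe2l1, had groups without overlap in the lower direction and 0 in the higher. Foxo1, a forkhead factor and the most counted gene of this list, had 83, 56 and 83 counts against 129, 121 and 36, so phthalate oocytes 1 and 2 stood above and phthalate oocyte 3 below all water oocytes. Park7, a sensor of oxidation, had a log2 ratio of 0.11 (-0.17 to 0.40). Of 8 further NRF2 target genes that passed, 0 were higher and 0 lower. G6pdx, which supplies NADPH, had a log2 ratio of 0.03 (-0.15 to 0.20), Me1, malic enzyme, one of -0.14 (-0.42 to 0.13), and Hmox1, heme oxygenase, was listed at 0.

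**Figure D4:**
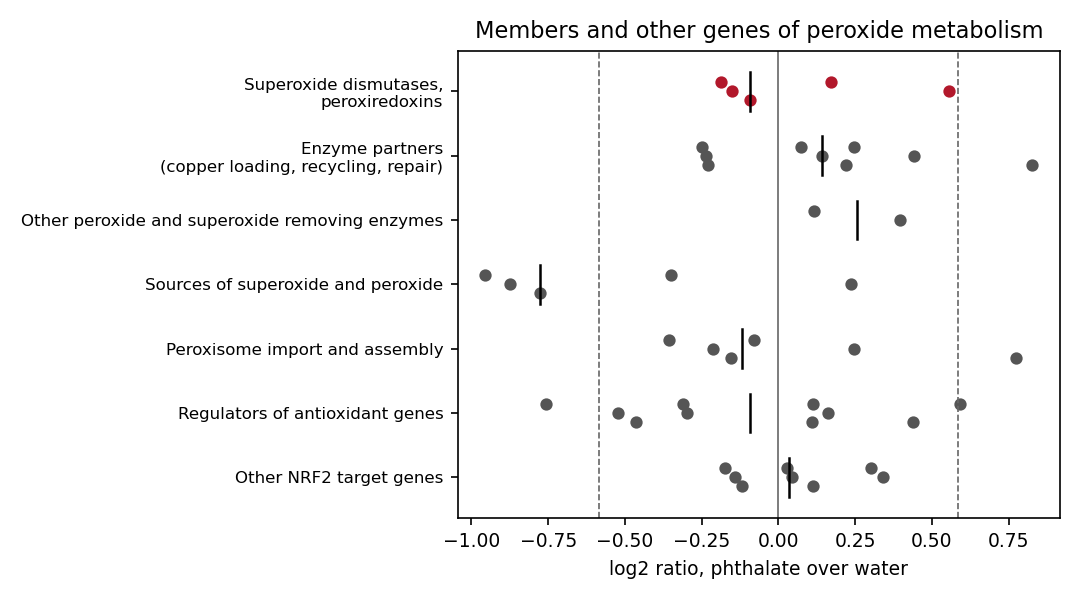
Log2 ratio of phthalate over water for the 5 members that passed the filter (red) and for the genes of 6 lists of peroxide metabolism that passed it (grey), 1 point per gene. Short vertical lines are medians and dashed lines mark 1.5-fold. Sod1 (0.56) is the highest of the members, and 3 of the 5 genes that make superoxide or peroxide lie below the lower line, as do 8.14% of all genes tested. These 3 had mean counts below 20, and the share among genes of like abundance was not computed.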

How the data were processed

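The table the authors deposited holds raw whole-number counts, with 1 row for each of 25239 gene symbols and of 92 ERCC spike-ins, and all of its columns of values were used. Per the submitters' processing notes the reads were handled with cutadapt, Trimmomatic, HISAT2 and DESeq2 on mm10; versions, the counting tool, the annotation and the use of strand and molecular identifiers are not given in the sources used here. Of the counts from 1 to 20, 69.9% were even, and whether both mates of a pair were counted is not given either.

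ERCC counts were left out of totals. CPM is a count over the library total, scaled to 1000000. Genes were filtered with filterByExpr (minimum count 10, minimum total count 15) and totals scaled by TMM factors from 0.935 to 1.031 (edgeR 4.0.16, R 4.3.3). A ratio divides summed counts of the groups over scaled totals, a sum of 0 being set to 3 counts, with an exact 95% interval (Clopper-Pearson) that holds the summed count fixed. The ratio and its interval, written out separately, were tried on simulated independent counts, with no TMM factors, paired counts or extra spread among libraries. That trial does not show how far the intervals hold for these data. The titles call each GEO sample a GV oocyte and no animal or culture is named, so no p-value was computed. Gene models and lengths came from GENCODE M21, copies from blastn 2.17.0, alignments from Biopython 1.88, promoters from RefSeq.

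The members and gene lists were chosen with earlier results of these data known. Named from the lists were the 2 most counted genes of each and, at a mean count of at least 20, those past 1.5-fold (0 beyond these); other genes were named for their role or after their values were seen, and 1 gene that the rule names is not reported here. Alternatives were each library left out, read pairs, removal of Rn45s, other scalings, filters, fold limits and lengths.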

Additional observations from a re-analysis of the deposited data

How the results depend on the processing

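Of the results above, the log2 ratios of Sod1, Prdx1, Prdx2 and Prdx4 kept their direction under all 11 alternatives. That of Sod1 ran from 0.44 to 0.62; since its groups do not overlap, leaving out a library could not reverse it. Those of Prdx1 ran from -0.29 to -0.05 and of Prdx2 from 0.0007 to 0.29. The sign changed under 3 alternatives for Sod2 (-0.89 to 0.34), 3 for Prdx3 (-0.32 to 1.302), 2 for Prdx5 (-0.26 to 0.10) and 1 for Prdx6 (-0.43 to 0.78), in each case when 1 library was left out. Other scalings, read pairs and the removal of Rn45s left Sod1 between 0.54 and 0.56. The number of members past 1.5-fold ran from 0 to 1 in the higher and from 0 to 1 in the lower direction when a library was left out. The lower of the other fold limits tried, a level 25% higher in one group than in the other, gave 1 higher (Sod1), and no filter on low counts gave 1 lower (Prdx4, 8 and 2 counts). The log2 ratio of the summed share of the 9 genes was 0.19 and ran from 0.14 to 0.24. Lengths per protein-coding transcript and the intervals on read pairs were chosen after seeing the data. No paired analysis was possible because no label ties a replicate number to an animal or culture shared by both groups, and no test was made. Depth limits Sod2, Prdx3, Prdx4 and Prdx6, which had 10 to 52 counts in all.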

Other observations

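Among 447 other genes whose mean count reached 100, those whose profile over the 6 libraries was most like that of a member were found by the root-mean-square difference of centred log2 CPM. For Sod1 they were Hpf1 (0.105), D6Ertd527e (0.107) and Dnajc11 (0.123), against a median of 0.358 over all 447. Hpf1, a partner of PARP enzymes in DNA repair, had 813, 708 and 684 CPM under water and 991, 1030 and 833 under phthalate. For Prdx2 they were Nup98 (0.0735), Zfp57 (0.0910) and Padi6 (0.0943), and the median was 0.263. Padi6, a protein of the oocyte's cytoplasmic lattices, had 4420, 4550 and 4510 CPM against 4210, 4990 and 5940, with phthalate oocyte 3 highest, as for Prdx2. For Prdx1 they were Hmgcs1 (0.0984), Sfr1 (0.100) and Uhrf1 (0.101), and the median was 0.278. These likenesses over 6 libraries are given as a description.

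Small counts of the members were mostly even, as were 69.9% of all counts from 1 to 20 in the table. Of the nonzero library counts, 5 of 6 were even for Prdx3, 5 of 6 for Prdx6, 4 of 6 for Sod2 and 3 of 3 for Prdx4. The number of independent fragments behind these 4 genes is therefore not known from the counts.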
